A study of Homo sapiens with 6 samples.

Results

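FANCA and RAD54L are DNA repair genes that stood out in a map of RNA contacted by the splicing protein SF3B4, FANCA by its number of peaks and RAD54L by the height of its highest one. Their peaks were taken from both deposited peak lists by a single rule: the midpoint of the peak had to lie in the gene, on the gene's strand. This gave 20 of the 3660 SF3B4 peaks, 18 in FANCA and 2 in RAD54L, and 0 of the 270 peaks of the second protein, G4PID. Because both genes were chosen by these peaks, the number and the height of their peaks are a description and carry no test. The next genes after FANCA by number of SF3B4 peaks were CAD and PCNX3, with 12 each.

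The peaks come from eCLIP, in which a protein is pulled down with the RNA fragments it was crosslinked to and the fragments are set against an input library. All 6 libraries were labelled as HEK293T, an established line of human embryonic kidney origin. The SF3B4 group (2 libraries, antibody against SF3B4), the G4PID group (2 libraries, antibody against the HA tag) and the input group (2 libraries, no antibody) share 1 treatment text, which describes transfection with a plasmid for G4PID or for the miniTurboID ligase, and 500 µM biotin for 30 min. That text does not settle which of the SF3B4 and input cultures received a plasmid, or whether the libraries came from separate cultures. G4PID, a designed ligase that labels proteins near G-quadruplexes with biotin, is made from the plasmid, so its list describes an introduced protein. A single peak list stands for each antibody, without values for its libraries, so neither replicate spread nor read depth is known. The labelled cell line could not be checked against marker genes, because no expression values were used here. Abundant RNA and strong binding cannot be told apart.

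SF3B4 is a subunit of SF3b, the part of the U2 small nuclear ribonucleoprotein that settles on the branch point region shortly before the 3' end of an intron, the acceptor. FANCA belongs to the Fanconi anaemia core complex, which attaches ubiquitin to FANCD2 and FANCI when a DNA interstrand crosslink blocks replication. RAD54L is a DNA translocase that acts when a broken DNA end searches for and invades its homologous partner during homologous recombination.

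FANCA (ENSG00000187741.14) lies on the minus strand of chromosome 16 at chr16:89737549-89816657 (hg38), and its reference transcript FANCA-202 has 43 exons and 42 introns. RAD54L (ENSG00000085999.11) lies on the plus strand of chromosome 1 at chr1:46247688-46278473, and its reference transcript RAD54L-201 has 18 exons and 17 introns. Introns are numbered from the 5' end of these transcripts. An intron is called bound here when it holds the midpoint of an SF3B4 peak. An intron that is not bound in this sense is not shown to lack SF3B4, since the list holds only peaks that passed the authors' thresholds.

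The sequence under the peaks could be read where another annotated transcript runs through the intron. That was the case for 2 of the 18 bound FANCA introns, for 6 of the 24 unbound ones, and for 0 of the 2 bound and 3 of the 15 unbound RAD54L introns. The readable introns are not spread evenly along the genes. FANCA introns 38 to 42 lie at its 3' end, where it overlaps ZNF276 on the opposite strand. The stretches read in RAD54L lie where it overlaps LRRC41, also on the opposite strand. The windows below run 5' to 3' on the RNA strand, as DNA letters of GENCODE release 29 transcripts on hg38. They show the last 80 nt of the intron and the first 12 nt of the exon, with the bases inside an SF3B4 peak in capitals. Both readable bound introns of FANCA are shown, followed by the unbound introns 39 and 41 on either side of bound intron 40.
FANCA intron 24 (bound, chr16:89770248-89770339): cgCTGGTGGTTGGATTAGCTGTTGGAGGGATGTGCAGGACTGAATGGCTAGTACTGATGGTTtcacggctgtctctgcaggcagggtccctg
FANCA intron 40 (bound, chr16:89739278-89739369): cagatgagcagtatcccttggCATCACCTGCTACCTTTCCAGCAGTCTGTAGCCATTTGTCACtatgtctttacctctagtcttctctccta
FANCA intron 39 (unbound, chr16:89739542-89739633): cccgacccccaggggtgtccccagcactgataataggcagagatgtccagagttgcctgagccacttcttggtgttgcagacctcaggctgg
FANCA intron 41 (unbound, chr16:89738963-89739054): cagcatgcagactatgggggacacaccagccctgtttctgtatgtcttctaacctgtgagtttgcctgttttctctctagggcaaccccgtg

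In both bound introns the peak ended before the terminal AG of the intron. It stopped 18 nt short of the exon in intron 24 and 17 nt short in intron 40. Pyrimidines made up 65% of positions 4 to 23 upstream of the exon in intron 24 and 75% in intron 40, and both peaks reached into the upstream end of that stretch. The 6 readable unbound FANCA introns ranged from 60% to 85%, so both bound values lay within the range of the unbound ones. The letters CTNA, a short form of the branch point signal, were searched on the RNA strand between 15 and 50 nt upstream of the exon. Intron 24 held them at 2 places, with the A 38 and 24 nt upstream, both inside the peak, and intron 40 held none. Of the 6 readable unbound introns 5 held them, and of all 26040 readable introns of protein-coding genes 59.3% did. A quadruplex motif (4 stretches of 3 or more G, spaced 1 to 7 nt apart) was searched in the last 100 nt of the introns readable over that length. It was in 0 of the 2 bound and 0 of the 6 unbound FANCA introns in sense, and in 3.44% of all 21826 such introns. At this number of readable introns no difference could be detected.

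For RAD54L the exon side of both peaks could be read, and it is shown whole because both peaks ran across the acceptor into the exon. The first unbound intron after them, intron 7, is shown from 65 nt upstream of its exon.
RAD54L exon 6, part inside the intron 5 peak (chr1:46260542-46260569): GGAGAAACTCCCTGTCCATGTGGTTGTT
RAD54L exon 7, part inside the intron 6 peak (chr1:46260727-46260777): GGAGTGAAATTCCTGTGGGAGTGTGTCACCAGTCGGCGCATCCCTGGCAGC
RAD54L intron 7 (unbound, chr1:46261196-46261272): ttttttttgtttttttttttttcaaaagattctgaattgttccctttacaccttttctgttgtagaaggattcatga

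SF3B4 peaks were present at 18 of the 42 introns of FANCA (42.9%), with never more than 1 peak in an intron. All 18 midpoints lay in an intron, within 100 nt of its acceptor. In RAD54L 2 of 17 introns were bound (11.8%), again with 1 peak each. Over all protein-coding genes with an SF3B4 peak, 11.3% of 27217 introns were bound, and over all protein-coding genes 1.66% of 185038. These shares stand beside those of FANCA and RAD54L as a description, since the peaks also chose the genes.

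**Figure D1:**
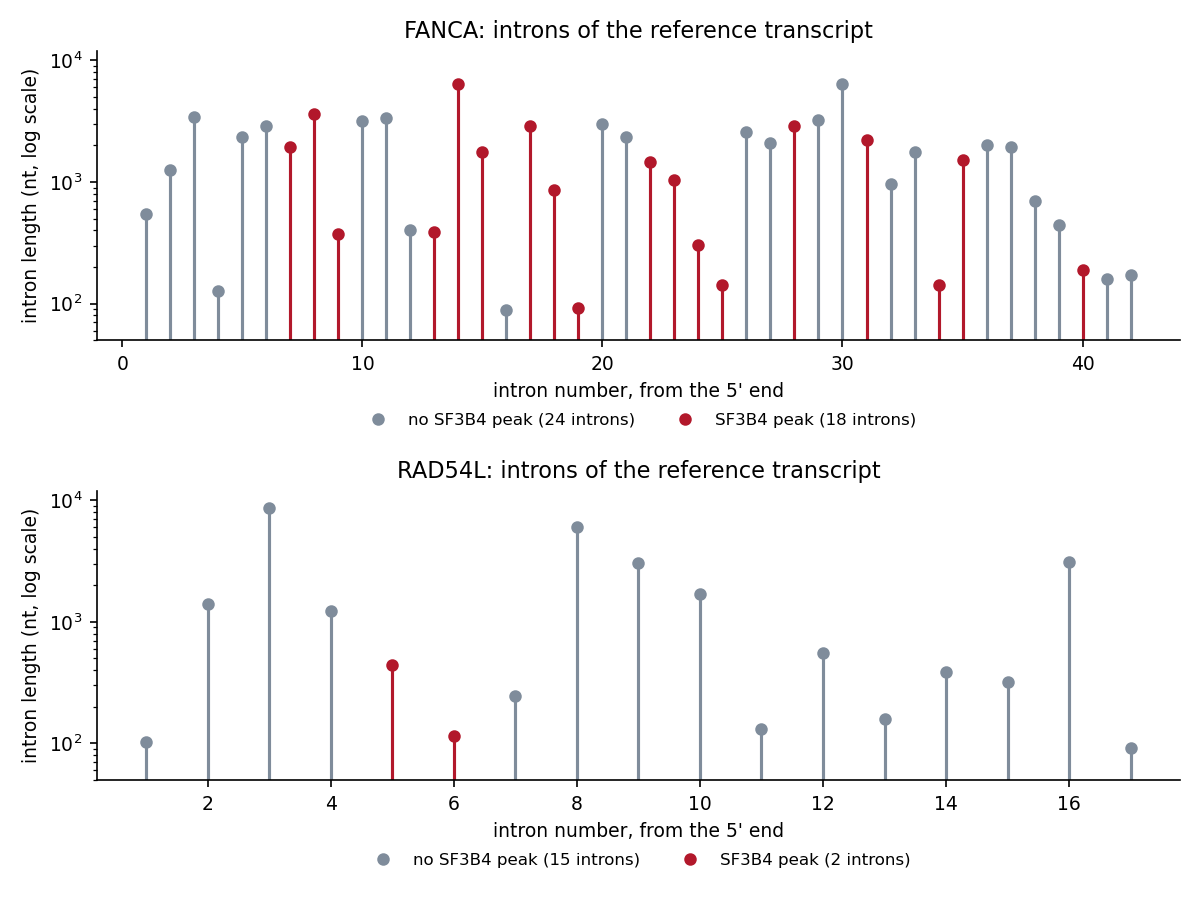
Each stem is an intron of the reference transcript, placed by its number from the 5' end (horizontal) and its length in nt on a log scale (vertical), in FANCA (top) and RAD54L (bottom), red with and grey without an SF3B4 peak. The first 6 introns of FANCA have none, introns 22 to 25 form a run of 4 bound introns, and the 2 bound introns of RAD54L are neighbours.

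Along FANCA, where 42.9% of introns were bound, the bound introns stood in short runs or singly. Introns 1 to 6 had no peak, introns 7 to 9, 13 to 15 and 17 to 19 were bound in runs of 3, introns 22 to 25 in a run of 4, introns 34 and 35 as a pair, and introns 28, 31 and 40 singly. By position, 5 of the first 14 introns, 9 of the middle 14 and 4 of the last 14 were bound. An intron that followed a bound one was itself bound in 10 of 18 cases, and an intron that followed an unbound one in 8 of 23. In the other genes with a peak these shares were 18% of 2869 and 10.3% of 22536, pooled over genes that differ in their share of bound introns. The introns of 1 gene share their transcript. Whether the runs of FANCA differ from those of other genes, or from a random placing of its bound introns, was not tested.

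The 5'-most run opened with intron 7 (1938 nt), whose peak at chr16:89803362-89803426 had its midpoint 53 nt upstream of exon 8 and a deposited log2 fold of 4.07. Intron 8 (3620 nt) carried a peak of 27 nt at chr16:89799663-89799689, 38 nt upstream of exon 9, with a fold of 4.01. Intron 9 (372 nt) carried one of 79 nt at chr16:89799217-89799295, 24 nt upstream, with a fold of 4.25. Exon 9, which lies between the last 2 of these peaks, is 34 nt long and is the shortest exon that follows a bound FANCA intron. The fold of each peak is the authors' own value. Going by column order and value range, it was taken to be the log2 ratio of pulldown to input, and serves only to describe and rank peaks within the SF3B4 list.

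The next run held both a short and a very long intron. Intron 13 (390 nt) had its peak at chr16:89791512-89791586, 13 nt upstream of the exon at the midpoint, with a log2 fold of 3.51. In intron 14, at 6438 nt the longest of the gene, the peak at chr16:89784962-89785094 was also the widest in FANCA (133 nt) and had its midpoint 64 nt upstream (fold 3.61). The peak of intron 15 (1751 nt) at chr16:89783113-89783171 lay 40 nt upstream (fold 3.49). All 3 folds were below the list median of 3.93.

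Intron 16, at 88 nt the shortest of the gene, separated that run from the next and had no peak. Intron 17 (2901 nt) carried a narrow peak of 29 nt at chr16:89779996-89780024, 53 nt upstream of the exon, with a log2 fold of 4.71, the second highest of the gene. Intron 18 (865 nt) had a wider one of 94 nt at chr16:89778974-89779067, 17 nt upstream (fold 3.65). Intron 19 is only 92 nt long, nearly as short as intron 16, and its peak at chr16:89778824-89778890 had its midpoint 7 nt upstream of the exon (fold 3.34). Introns 16 and 19 thus differ little in length, and a peak was listed for only the second of them.

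Introns 22 to 25 shorten step by step towards the 3' end, and each had a peak. Intron 22 (1456 nt) had one of 116 nt at chr16:89771783-89771898, 26 nt upstream of the exon, with a log2 fold of 4.42. Its neighbour intron 23 (1043 nt) had one of 103 nt at chr16:89770620-89770722, 37 nt upstream (fold 3.99). Intron 24 (304 nt), whose sequence is printed above, had a peak of 60 nt at chr16:89770278-89770337, 48 nt upstream (fold 3.87). Its −log10 p-value of 21.5 was the highest of the gene and ranked 224 in the list. Intron 25 (141 nt) had a peak of 101 nt at chr16:89769994-89770094 that covered 49.6% of the intron (20 nt upstream, fold 3.14).

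The next peaks stood at single introns with unbound neighbours on both sides. Intron 28 (2867 nt) had one of 34 nt at chr16:89762042-89762075, 36 nt upstream of the exon, with a log2 fold of 3.88. Intron 31 (2235 nt) had the most distant one, 27 nt wide at chr16:89749983-89750009 with its midpoint 94 nt upstream (fold 3.74). That peak had the lowest −log10 p-value of the gene, 6.12, and 50 peaks of the list carried the same pair of fold and p.

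The highest fold of FANCA stood at intron 35 (1512 nt), where the peak at chr16:89745085-89745135 reached 5.31, rank 196 of 3660, with its midpoint 39 nt upstream of the exon. The intron before it, intron 34 (142 nt), had a peak of 92 nt at chr16:89746654-89746745, 11 nt upstream, that covered 40.1% of the intron (fold 4.10). The last bound intron, intron 40 (188 nt), had its peak at chr16:89739307-89739348, 38 nt upstream, with the lowest fold of the gene, 3.03. This peak was the only one of the 18 in the 3355 nt that FANCA shares with ZNF276, a zinc finger gene on the opposite strand. ZNF276 had 5 SF3B4 peaks on its own strand, 0 of them within the shared stretch.

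RAD54L had its peaks at 2 neighbouring introns, 5 and 6, with the 70 nt exon 6 between them. The peak of intron 5 (442 nt) at chr1:46260431-46260569 was 139 nt wide, had its midpoint 42 nt upstream of exon 6 and a log2 fold of 6.65, rank 12 of 3660. The peak of intron 6 (115 nt) at chr1:46260626-46260777 was 152 nt wide, 26 nt upstream at the midpoint, with a fold of 4.05, and covered 87.8% of the intron. Both were wider than any FANCA peak. Their −log10 p-values were 15.7 and 15.3. The first was the most frequent value of the list, shared by 300 peaks, of which only 4 also had the same fold. It therefore gives no rank of its own, and its closeness to 15.3 carries little meaning. Introns 1 to 4 and 7 to 17 of RAD54L had no peak. LRRC41, a gene of the opposite strand, overlaps RAD54L over 17278 nt from position 46261196 on, downstream of both peaks, and its 1 SF3B4 peak lay outside the overlap. The nearest G4PID peak to FANCA lay 90.7 kb away in TCF25, on the other strand, and the nearest to RAD54L 14750 kb away. The G4PID list holds only 270 peaks, and these distances were not set against those of other genes.

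**Figure D2:**
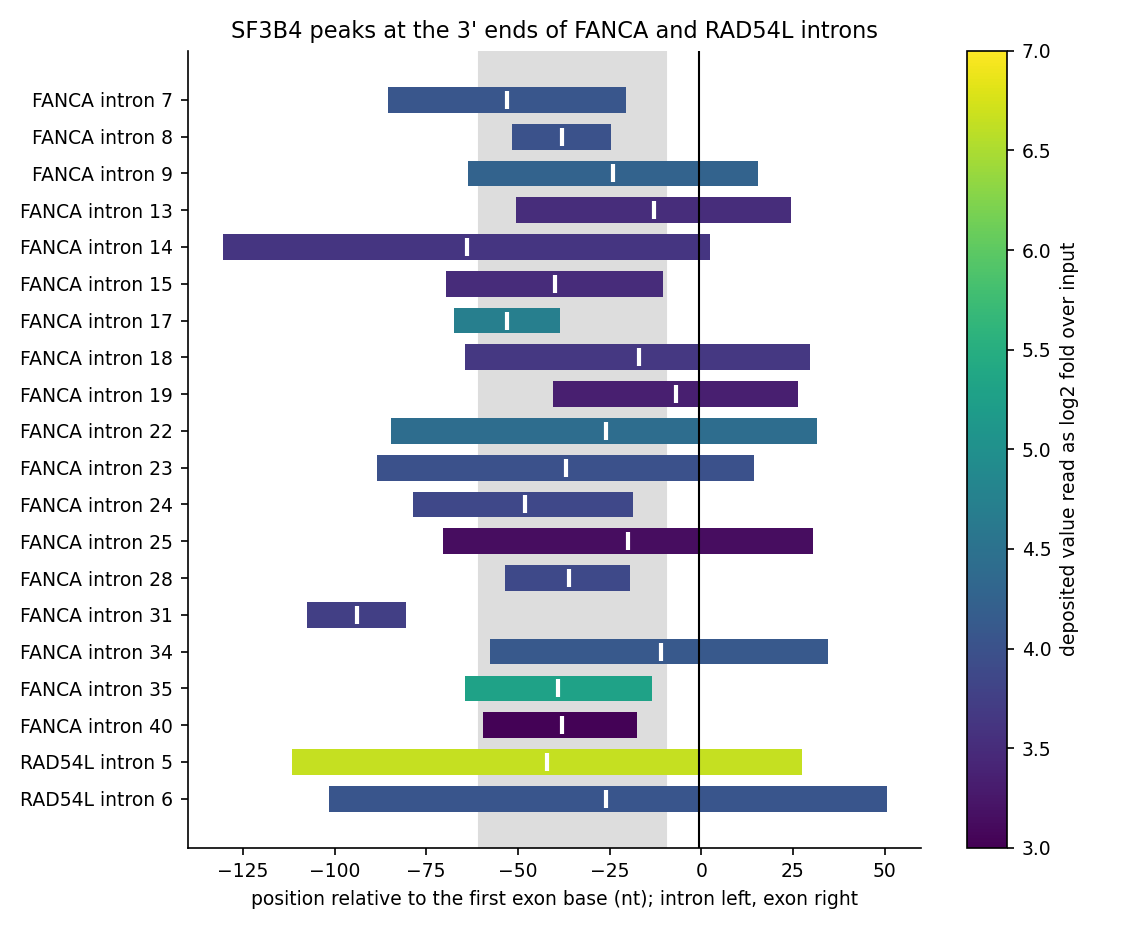
Each bar is an SF3B4 peak, drawn from its first to its last base relative to the first base of the downstream exon (vertical line, nt), with its midpoint in white and its colour giving the deposited log2 fold; the grey band marks 10 to 60 nt upstream. Of the 20 bars 17 have their midpoint in the band, intron 31 of FANCA lies furthest upstream at 94 nt, and the intron 5 peak of RAD54L has the highest fold, 6.65.

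The peaks of both genes sat where SF3B4 peaks sit in general. The midpoint was 10 to 60 nt upstream of the nearest annotated acceptor for 15 of 18 FANCA peaks and for 2 of 2 RAD54L peaks, beside 71.1% of 3626 SF3B4 peaks in genes with an acceptor. The 3 FANCA peaks outside the stretch were those of introns 14, 19 and 31. The median distance was 37.5 nt in FANCA and 34.0 nt in RAD54L, and 30 nt over the 3159 peaks of the list that lay within 100 nt upstream. Peaks were 27 to 133 nt wide in FANCA (median 66.0 nt), beside a list median of 71.0 nt.

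The FANCA peaks differed in where they ended. Across the acceptor ran 9 of them, 67 to 133 nt wide, which reached 3 to 35 nt into the exon. The other 9, 27 to 65 nt wide, ended 10 to 80 nt before it, so no width was common to both kinds. The longest reach into an exon in FANCA was that of intron 34, where 35 nt of exon 35 lay inside the peak. In RAD54L the intron 5 and intron 6 peaks reached 28 and 51 nt into the exon, the sequences printed above.

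FANCA led the list by number of peaks and not by their height. Its folds ran from 3.03 to 5.31 with a median of 3.88, below the list median of 3.93 in 10 peaks and above it in 8. Its −log10 p-values ran from 6.12 to 21.5 with a median of 12, above the list median of 8.94. Among peaks with a fold of at least 4 it kept 7 of 18, and 2 genes then had more, with HNRNPU, which encodes a nuclear scaffold RNA-binding protein, first at 9. Both RAD54L peaks were above 4. The pair of fold and p was shared with at least 1 other peak of the list for 14 of the 18 FANCA peaks and for both RAD54L peaks, so close ranks by fold carry little meaning. In FANCA the 7 peaks of introns up to 500 nt had a median fold of 3.51 and a median distance of 20 nt, and the 11 of longer introns a median fold of 3.99 and a median distance of 39 nt, with overlapping ranges of fold (3.03 to 4.25 and 3.49 to 5.31).

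Bound introns of FANCA were on the whole shorter than the unbound ones, with wide overlap. Their lengths ran from 92 to 6438 nt with a median of 1250 nt (quartiles 321 and 2161 nt). The 24 unbound introns ran from 88 to 6354 nt with a median of 1976 nt (quartiles 522 and 2922 nt). In the other genes with a peak the medians were 618 nt for 3046 bound and 866 nt for 24112 unbound introns, so bound was again the shorter class. The 2 bound introns of RAD54L, at 442 and 115 nt, lay inside the range of its 15 unbound ones, which ran from 91 to 8566 nt with a median of 552 nt. No test was made on these lengths, since introns of a gene are not replicates.

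**Figure D3:**
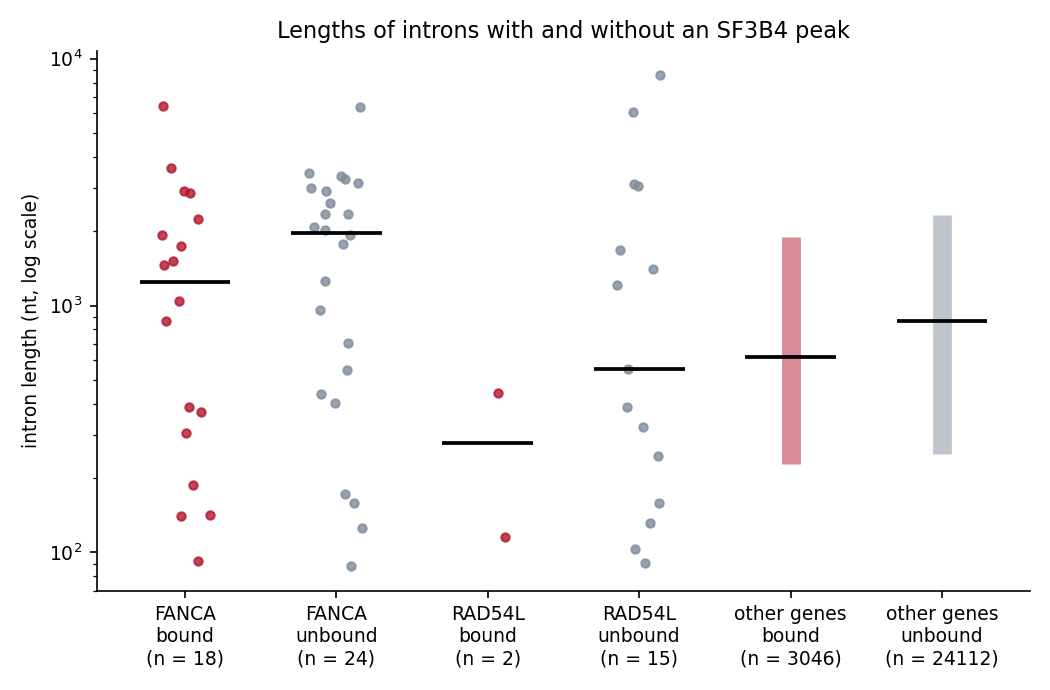
Intron lengths in nt on a log scale, with a point per intron for FANCA and RAD54L and the range between the quartiles as a bar for the other genes with a peak; black lines are medians. Bound FANCA introns (median 1250 nt) and unbound ones (1976 nt) overlap over nearly their whole range, and the other genes show medians of 618 and 866 nt.

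By length class, the share of bound FANCA introns was lowest among the longest introns, in small counts that were not tested. Peaks were present at 4 of 8 introns up to 200 nt, 3 of 5 above 200 and up to 500 nt, 6 of 12 above 500 and up to 2000 nt, and 5 of 17 above 2000 nt. In the other genes with a peak the shares over the same classes were 11.5%, 15.0%, 10.5% and 9.48%. In RAD54L the bound introns were 1 of 5 up to 200 nt and 1 of 4 above 200 and up to 500 nt, and 0 of 4 in each of the longer classes.
The exons that follow bound FANCA introns were 34 to 188 nt long (median 95 nt), and those that follow unbound ones 60 to 1160 nt (median 102 nt), the longest being the last exon.
In FANCA 1 of 18 bound and 2 of 24 unbound introns were wholly covered by a retained-intron transcript in the annotation. RAD54L has 0 such transcripts among its 12, so its count of 0 of 17 introns was fixed by the annotation. In the other genes with a peak, 21.9% of bound and 7.73% of unbound introns were covered in this way.

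Measured by the share of introns bound, FANCA was high but not first. Among 1183 protein-coding genes with a peak and at least 10 introns, the median share was 8.33% (quartiles 5.26 and 15.4%) and the maximum 75%, in HNRNPH1, and FANCA ranked 17 and RAD54L 398. DDX51 had the same share as FANCA, and ties in these ranks were ordered by number of peaks. The 5 genes named as most like FANCA in this share were DDX51 (42.9%, 6 of 14 introns) and DDX17 (41.7%, 5 of 12), which encode DEAD-box RNA helicases, RBM39 (43.8%, 7 of 16) and SRSF11 (41.7%, 5 of 12), which encode splicing factors, and ACADVL (42.1%, 8 of 19), which encodes a fatty acid oxidation enzyme. A further gene, DUS1L, tied with DDX17 and SRSF11 and was left out only by the order of ties, which put genes with more peaks first. All 6 have fewer introns than FANCA. Of the 68 genes with a peak and at least 40 introns, the median gene had 2 peaks and 2.47% of introns bound, and the highest number outside FANCA was 12. That gene, CAD, an enzyme of pyrimidine synthesis, had 11 of 43 introns bound (25.6%). PCNX3 had 12 of 34 (35.3%), and HNRNPH1, which encodes a G-tract binding RNA-binding protein, had 9 of 12. HNRNPH1 had 11 peaks, as did HNRNPU and DGCR8.

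**Figure D4:**
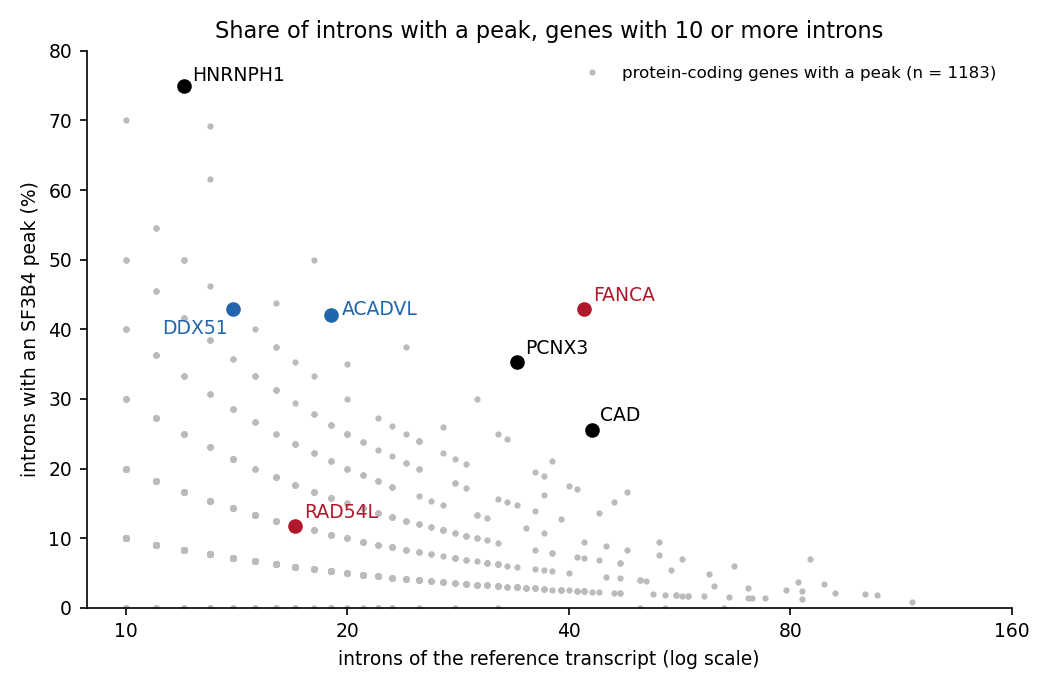
Each point is a protein-coding gene with an SF3B4 peak and at least 10 introns, placed by its number of introns (log scale) and the percentage of them bound. FANCA, at 42 introns and 42.9%, lies above CAD, at 43 introns and 25.6%, and RAD54L lies at 17 introns and 11.8%.

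Other genes of DNA repair were read from 6 pathway lists of 134 genes in all, none of which had a G4PID peak, beside 0.496% of all protein-coding genes. An SF3B4 peak was present in 11 of 30 genes of the Fanconi anaemia pathway and 12 of 45 of homologous recombination, FANCA and RAD54L included, beside 8.83% of 19969 protein-coding genes. Without FANCA the Fanconi list had 10 of 29 (34.5%), and without RAD54L the recombination list had 11 of 44 (25%). Counted over introns, 17 of 372 in the other Fanconi genes (4.57%) and 19 of 526 in the other recombination genes (3.61%) were bound, beside 1.66% over all protein-coding genes. Base excision repair was higher than both by introns, with 14 of 203 (6.90%), and the shares were 4.13% in non-homologous end joining, 1.90% in nucleotide excision repair and 0 of 124 in mismatch repair. Neither RNA amount nor the number of introns per gene was matched in these counts, and no test was made.

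In the Fanconi pathway the other members had 17 peaks in all, beside the 18 of FANCA, which was chosen for its number of peaks. FANCD2, which the core complex ubiquitinates, has 42 introns like FANCA and had 4 peaks, at introns 11, 22, 38 and 39 (highest log2 fold 4.84). Its partner FANCI had 3 in 36 introns (4.93). FANCL, the ubiquitin ligase subunit of the core complex, had 2 (3.58), and FAAP100, another core complex member, had 2 (3.38). Each of the remaining 6, UBE2T, CENPX, FANCB, FANCE, BRIP1 and FAN1, had 1.

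Among recombination genes the most peaks were in EME2, with 7 (highest log2 fold 5.15), and in MUS81, with 6 (3.91). These encode partner subunits of a structure-specific nuclease. In EME2 3 of 7 introns were bound, and in MUS81 6 of 15. The midpoint lay 10 to 60 nt upstream of an acceptor for 2 of 7 EME2 peaks and 4 of 6 MUS81 peaks. RAD52, which encodes a strand annealing protein, had 3 peaks (highest log2 fold 4.99) and the topoisomerase gene TOP3A 2 (3.88). The highest fold of the list outside RAD54L was the 5.15 of EME2. RAD54L, chosen for the height of its highest peak, had 6.65 at intron 5 and 4.05 at intron 6.

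The shares of the other 4 repair lists ran from below to above that of homologous recombination. All were below that of the Fanconi list, with FANCA counted or left out. Non-homologous end joining had a peak in 4 of 13 genes (30.8%), led by PRKDC, the catalytic subunit of DNA-dependent protein kinase, with 6 peaks in 85 introns, and followed by PAXX and RIF1 with 2 each and POLL with 1. Base excision repair had 7 of 22 (31.8%), among them PARP1 and LIG3 with 3 peaks each and MUTYH with 2. Nucleotide excision repair had 5 of 25 (20%), among them XAB2 and LIG1 with 2 peaks each and DDB1 with 1. Mismatch repair had 1 of 9 (11.1%), the exonuclease gene EXO1, which also stands in the recombination list.

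**Figure D5:**
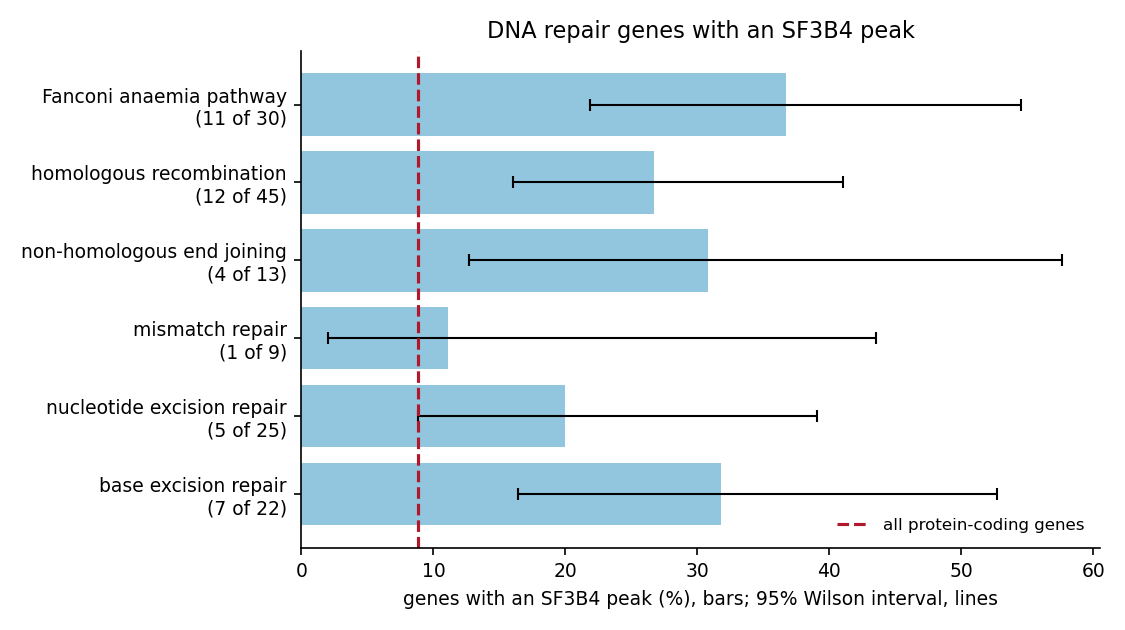
Bars give the percentage of genes with an SF3B4 peak in 6 DNA repair lists, lines the 95% Wilson interval, and the dashed line the 8.83% of all protein-coding genes. FANCA and RAD54L, which were chosen by their peaks, are counted in their lists. The Fanconi anaemia list stands highest at 36.7% (34.5% without FANCA) and mismatch repair, with 1 of 9 genes, lowest. The intervals of all 6 lists overlap. They count FANCA and RAD54L, and some genes stand in more than 1 list, so the overlap is a description and carries no test.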

How the data were processed

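The submitters' processing notes name the tools cutadapt 3.4 and STAR 2.7.0d, along with both hg19 and hg38. How peaks were called, filtered and joined across replicates was not given in the sources used here. For each antibody the authors deposited 1 peak list without a header, whose coordinates were taken as hg38, where 87.1% of 3626 SF3B4 peak midpoints in genes lay within 100 nt upstream of an annotated acceptor. Of the values the authors deposited with each peak, the first was read as a −log10 p-value and the second as a log2 fold of pulldown over input, from their order and range (all above 5 and all at least 3).

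Peaks were assigned by midpoint to the gene of their strand in GENCODE release 29, protein-coding genes first. The reference transcript was chosen by APPRIS level, CCDS, basic tag and coding length. Intron sequence was rebuilt from 206657 annotated transcripts, with 0 length mismatches, because no genome sequence was used here. Assignment and distances were tested on simulated data. Members and gene lists were chosen with earlier results of these data known. Named genes were FANCA and RAD54L, up to 4 further genes per repair list by number of peaks, the 5 genes nearest FANCA in share of introns bound, the 3 next by number of peaks, and overlapping genes. The 6 other Fanconi genes with 1 peak and HNRNPU were named after their values were seen. Some genes that this rule names are not reported here. HROB was matched by gene ID. Python 3.11.15, numpy 2.4.6, scipy 1.17.1 and matplotlib 3.10.9 were used.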

Additional observations from a re-analysis of the deposited data

How the results depend on the processing

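Of 44 alternative values, 34 stayed within 1.5 times the reported one. Any shared base in place of the midpoint, a midpoint from 100 nt upstream to 50 nt downstream of the acceptor, and all introns of the basic transcripts left 18 bound introns in FANCA and 2 in RAD54L. With a deposited fold of at least 4, FANCA had 7 peaks and 7 bound introns, and the genes with a peak fell to 6 in the Fanconi anaemia list, 6 in homologous recombination, 2 in non-homologous end joining, 2 in nucleotide excision repair and 0 in mismatch repair. By the same filter 2 genes had more peaks than FANCA, a count chosen after seeing the data, and 0 did with a −log10 p-value of at least 10, where FANCA kept 12. With peaks counted only 10 to 60 nt upstream of an acceptor, nucleotide excision repair had 3 genes and mismatch repair 0. These counts fall because fewer peaks enter them. No paired analysis was possible because each antibody has 1 list over both replicates, and for the same reason no replicate could be left out. Depth is unknown.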
